A study of Canis lupus familiaris with 22 samples.

Results

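The region by tissue interaction was described in the 16 RNA-seq libraries of dogs 18-2, 18-6, 18-7 and 18-9, out of 22 libraries from 7 dogs in the series. Each of these 4 mixed-breed dogs gave 4 libraries from 1 eye, for the macula and the periphery of the retina and of the RPE/choroid. RPE/choroid is the retinal pigment epithelium sampled with the vascular choroid behind it. Dogs 18-2 (pitbull mix) and 18-6 (mastiff mix) were males sampled in the left eye, and dogs 18-7 (pitbull mix) and 18-9 (boxer mix) were females sampled in the right eye. The estimated age was 2 to 3 years for dogs 18-2 and 18-9 and 3 to 5 years for dogs 18-6 and 18-7. No dog was labelled as treated, and sex and eye side cannot be told apart. The 6 other libraries, macular RPE/choroid of 3 further dogs taken with the retina on or off, hold no periphery and entered only as levels in samples that the comparison did not use.

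For every gene identifier and dog, the log2 difference between macula and periphery was taken within each tissue, and the value for RPE/choroid was subtracted from that for retina. A positive value of this difference of differences means that the macular excess was greater in the retina. A negative value means that it was greater in the RPE/choroid. The study's title names the dog macula and its supporting tissues, and this comparison asks whether the retina and its supporting tissue differ between regions in the same way. All 30951 identifiers of the files were considered, and 15577 passed the filter on low counts. None of them could be paired with a gene symbol (0 of 30951 matched the reference table), so identifiers are given as the files spell them, and neither the roles of the genes nor markers of the labelled tissues could be given.

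The retina holds the photoreceptors and the neurons that relay their signal. The RPE is a single sheet of pigmented cells that lies against the photoreceptor outer segments, recycles the visual chromophore and takes up shed outer segment membrane. The choroid supplies both from behind and contains vessels, melanocytes, fibroblasts and immune cells. In dogs, the macula corresponds to a central area rich in photoreceptors and ganglion cells. Because the pigment epithelium is attached to the neural retina on one side and to the choroid on the other, both dissected tissues are mixtures of cell types. In such bulk samples, fewer cells of a type and less RNA per cell cannot be told apart.

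Total counts of the 16 libraries ran from 2690847, in peripheral RPE/choroid of dog 18-6, to 7044176. The most abundant identifier took between 0.0933% and 0.143% of the counts of a library. Whether duplicate reads or abundant rows had been removed before deposit is not stated, and its part in the levels of abundant identifiers was not tested. TMM scaling factors lay between 0.947 and 1.04. Log2 levels correlated at 0.97 or more between macular retina libraries and at 0.941 or more between macular RPE/choroid libraries, across identifiers, and no pair of files was identical.

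The macular libraries of dogs 18-6 and 18-9 stood apart in a pattern that holds many of the largest positive values of the comparison, and it is given before the tests. In these dogs a group of identifiers was high in macular retina and low in macular RPE/choroid, against the periphery of the same eye. Counting identifiers at least 4-fold higher in macular than in peripheral retina and at the same time at least 4-fold lower in macular than in peripheral RPE/choroid gave 45 in dog 18-6 and 59 in dog 18-9. The same count was 2 in dog 18-2 and 0 in dog 18-7. The reverse pattern held for 2 identifiers in dog 18-6, 3 in dog 18-9 and 0 in each of the other dogs.

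Of the 76 identifiers mirrored in this way in at least 1 dog, 30 were mirrored in 2 dogs, and in every case these were dogs 18-6 and 18-9. All 30 belonged to the identifiers preferentially expressed in RPE/choroid. Their summed level in peripheral RPE/choroid was 4792 CPM (the standard per-library scaling of counts by the total) in dog 18-2, 5387 in dog 18-6, 4749 in dog 18-7 and 3923 in dog 18-9, a narrow range. In macular RPE/choroid it was 3073 CPM in dog 18-2 and 4191 CPM in dog 18-7, but 461 CPM in dog 18-6 and 286 CPM in dog 18-9. Macular retina showed the opposite order, with 106 CPM in dog 18-2, 121 CPM in dog 18-7, 1097 CPM in dog 18-6 and 1310 CPM in dog 18-9. Peripheral retina held 72 CPM in dog 18-2, 117 CPM in dog 18-6, 89.1 CPM in dog 18-7 and 198 CPM in dog 18-9. The other two dogs were shifted the same way to a smaller extent. The difference of differences of the 30 had a median of 6.8 in dog 18-6 and 6.94 in dog 18-9. It had a median of 1.1 in dog 18-2, with 29 of 30 positive and a highest value of 2.72, and of 0.5 in dog 18-7, with 25 positive and a highest value of 2.18. These identifiers were chosen by these values, which are therefore a description with no test. The identifier nearest to the limit inside the group had a smallest difference of 2.03 on the log2 scale, and the nearest outside had 1.99.

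**Figure D1:**
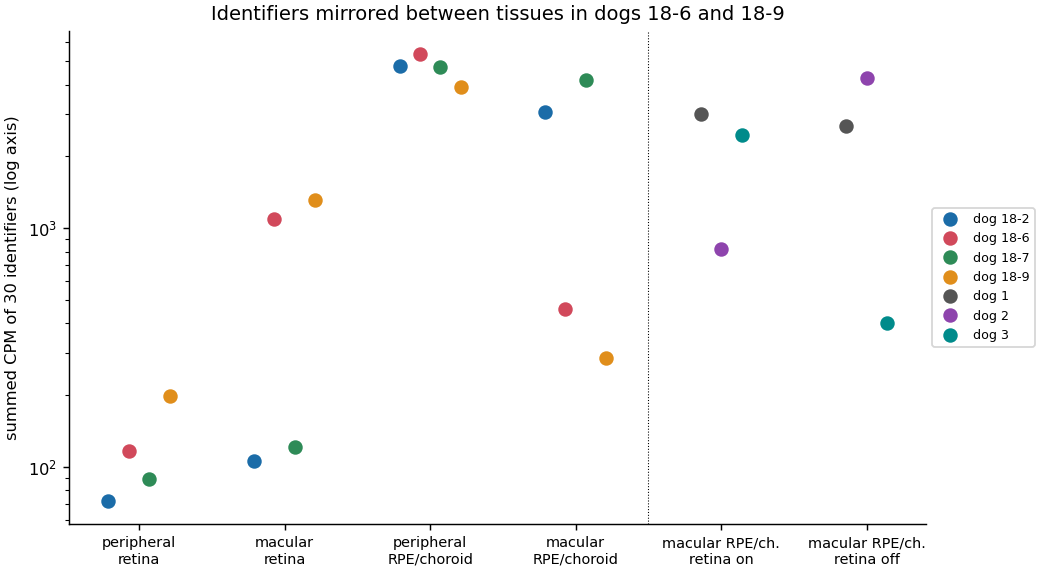
Summed level (CPM, log axis) of the 30 identifiers mirrored between the tissues in dogs 18-6 and 18-9; each point is 1 library, coloured by dog, and the dotted line separates the dogs sampled with the retina on or off. In the macula, dogs 18-6 and 18-9 have 1097 and 1310 CPM in retina and 461 and 286 CPM in RPE/choroid, while dogs 18-2 and 18-7 have 106 and 121 CPM in retina and 3073 and 4191 CPM in RPE/choroid.

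The same 30 identifiers were also uneven in the 6 macular RPE/choroid libraries that had no part in choosing them. Dog 1 had 3017 CPM with the retina on and 2684 CPM with the retina off. Dog 2 had 818 CPM with the retina on and 4263 CPM with it off. Dog 3 had 2469 CPM with the retina on and 401 CPM with it off. The low library was thus the retina-on eye in dog 2 and the retina-off eye in dog 3, and dog 1 had no low library.

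A related view used the periphery alone to choose identifiers. In every dog, 285 identifiers were at least 16-fold higher in peripheral RPE/choroid than in peripheral retina. In the macula, their summed level in RPE/choroid stayed between 25200 and 26600 CPM in all 4 dogs, against 27400 to 28700 CPM in the periphery. In macular retina it was 584 CPM in dog 18-2 and 654 CPM in dog 18-7, close to their peripheral 496 and 577 CPM. Macular retina of dog 18-6 had 1740 CPM against 554 CPM in its periphery, and that of dog 18-9 had 2140 CPM against 893 CPM. Only a part of the 285 moved. In dog 18-6, 45 (15.8%) were at least 4-fold higher in macular retina and 63 (22.1%) at least 4-fold lower in macular RPE/choroid. For dog 18-9 the counts were 58 (20.4%) and 57 (20%), against 5 and 4 in dog 18-2 and 3 and 5 in dog 18-7. In the other direction, 16 were at least 4-fold lower in macular retina of dog 18-9, 3 in dog 18-2, 1 in dog 18-6 and 0 in dog 18-7. The median retinal difference of the 285 was 0.67 in dog 18-6 and 0.04 in dog 18-9. Across the 285 identifiers, which are not independent, the regional difference in retina correlated with that in RPE/choroid at -0.59 in dog 18-6 and -0.66 in dog 18-9, and at -0.18 in dog 18-2 and -0.03 in dog 18-7. Peripheral values chose these identifiers and also enter both differences, so the counts are a description. By the interaction test described next, 68 of the 285 (23.9%) were called toward retina and 18 (6.32%) toward RPE/choroid, against 6.73% and 6.43% of all identifiers, with a median interaction of 0.35. The choice by peripheral levels favours positive interaction values, so these shares are a description too. The 285 included 24 of the 30 identifiers mirrored in dogs 18-6 and 18-9, and 45 of the 76 mirrored in any dog. The summed level of the 285 in macular retina moved with the mirrored pattern, but the shared members mean that it is not a separate view. The part of RPE/choroid material in the retina samples, or of how the tissues were separated, was not tested.

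An edgeR count fit that paired the 4 libraries of each dog tested whether the regional difference itself differed between retina and RPE/choroid. It called 2049 of 15577 identifiers (13.2%) at a Benjamini-Hochberg adjusted p under 0.05 (n = 4 dogs). The difference was more positive in retina for 1048 (6.73%) and more positive in RPE/choroid for 1001 (6.43%). This fit does not weigh the dogs equally, and limma on the 4 differences of differences called 980. The median over all 15577 was -0.02 on the log2 scale, which TMM scaling holds near 0. Called identifiers had a median absolute interaction value of 0.83 (quartiles 0.54 and 1.46), against 0.28 over all identifiers. At least 2-fold were 515 of the calls toward retina and 327 of those toward RPE/choroid. At least 8-fold were 95 and 30, so that large fitted values lay more often toward retina. Fitted values can lie above the differences of the single dogs where a group has few counts. ENSCAFG00000030721 was fitted at 9.95, with a mean of 5.06 over the differences of differences of the dogs. Of these 95, 65 were preferentially expressed in RPE/choroid and 42 were among the 76 mirrored identifiers. Outside the mirrored identifiers 2006 calls were left.

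The count of calls rested on all 4 dogs. It was 465 without dog 18-2, 671 without dog 18-6, 1234 without dog 18-7 and 341 without dog 18-9, and of these 438, 640, 1074 and 329 were also called, in the same direction, with all 4. No identifier was called in opposite directions in these fits. Fits on fewer dogs also have fewer residual degrees of freedom, and the part of this in the lower counts was not tested. Identifiers with an unadjusted p under 0.05 (edgeR) numbered 5028 with 4 dogs and 3525 to 4644 with 3. With both dogs 18-6 and 18-9 left out, a fit on only 2 dogs called 1880, with 1126 more positive in retina, and 1336 of them were shared with the full set. That fit has still fewer residual degrees of freedom and leans on the prior, so its count does not show agreement among dogs. A test that gives each dog's difference of differences equal weight (limma) called 980, of which 793 were shared.

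**Figure D2:**
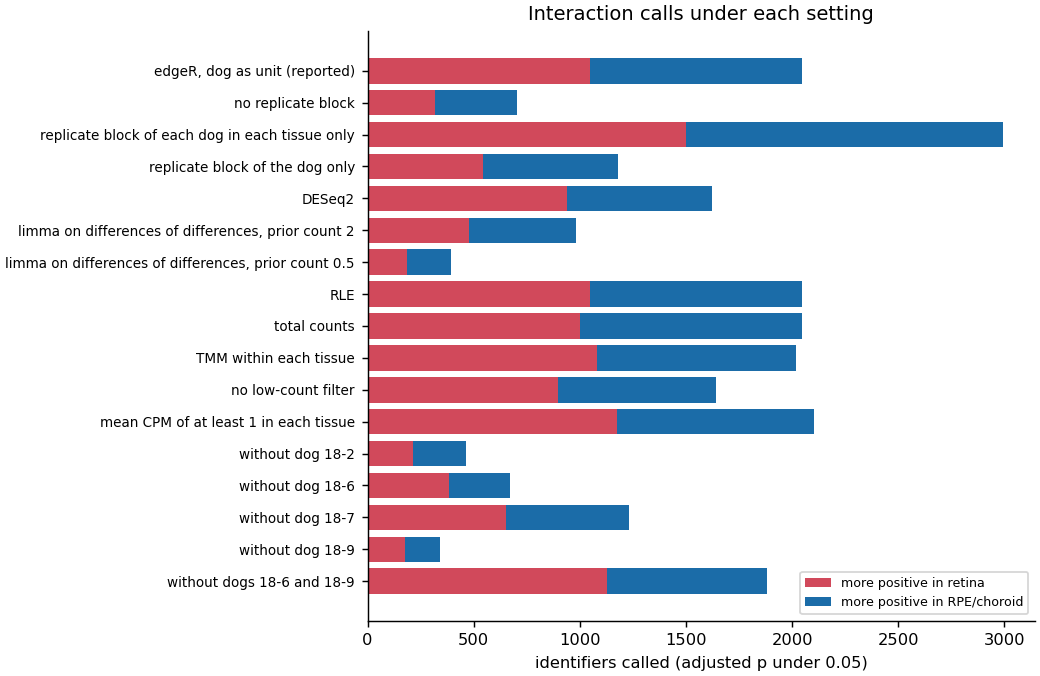
Number of identifiers called for the interaction (adjusted p under 0.05) under each setting, split by direction. The reported fit calls 2049, and the fits with 1 dog left out call 341 to 1234, in both directions each time.

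Agreement between dogs was close among the calls, which the test itself favours. All 4 differences of differences had the same sign for 2034 of the 2049 called identifiers (99.3%) and for 6797 of all 15577 (43.6%). At least 2-fold in every dog were 263 identifiers toward retina, of which 195 were called, and 176 toward RPE/choroid, of which 139 were called.

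Across all 15577 identifiers the difference of differences correlated between every pair of dogs, at 0.43 to 0.56 (Pearson) in 5 pairs and at 0.72 in dogs 18-6 and 18-9. Each dog's value comes from its own 4 libraries, and identifiers are not independent replicates. The higher value of that pair lay in the RPE/choroid, where the regional differences correlated at 0.74, against 0.46 to 0.56 in the other pairs. In the retina the pairs had 0.38 to 0.56, again highest in dogs 18-6 and 18-9. Spread followed the same division. The standard deviation of the regional difference over identifiers was 0.917 in dog 18-6 and 0.845 in dog 18-9 in RPE/choroid, and 0.598 in dog 18-2 and 0.505 in dog 18-7. In the retina it was 0.444 to 0.532 in all 4 dogs. Values at or above 4-fold toward retina numbered 661 in dog 18-6 and 709 in dog 18-9, and 230 and 195 in dogs 18-2 and 18-7. Toward RPE/choroid the dogs did not divide in this way, with 445 in dog 18-6, 232 in dog 18-9, 242 in dog 18-2 and 130 in dog 18-7. The peripheral RPE/choroid library of dog 18-6 was also the shallowest, and the part of depth in its spread was not tested. Dog 18-9 had a peripheral RPE/choroid library of 6564421 counts.

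**Figure D3:**
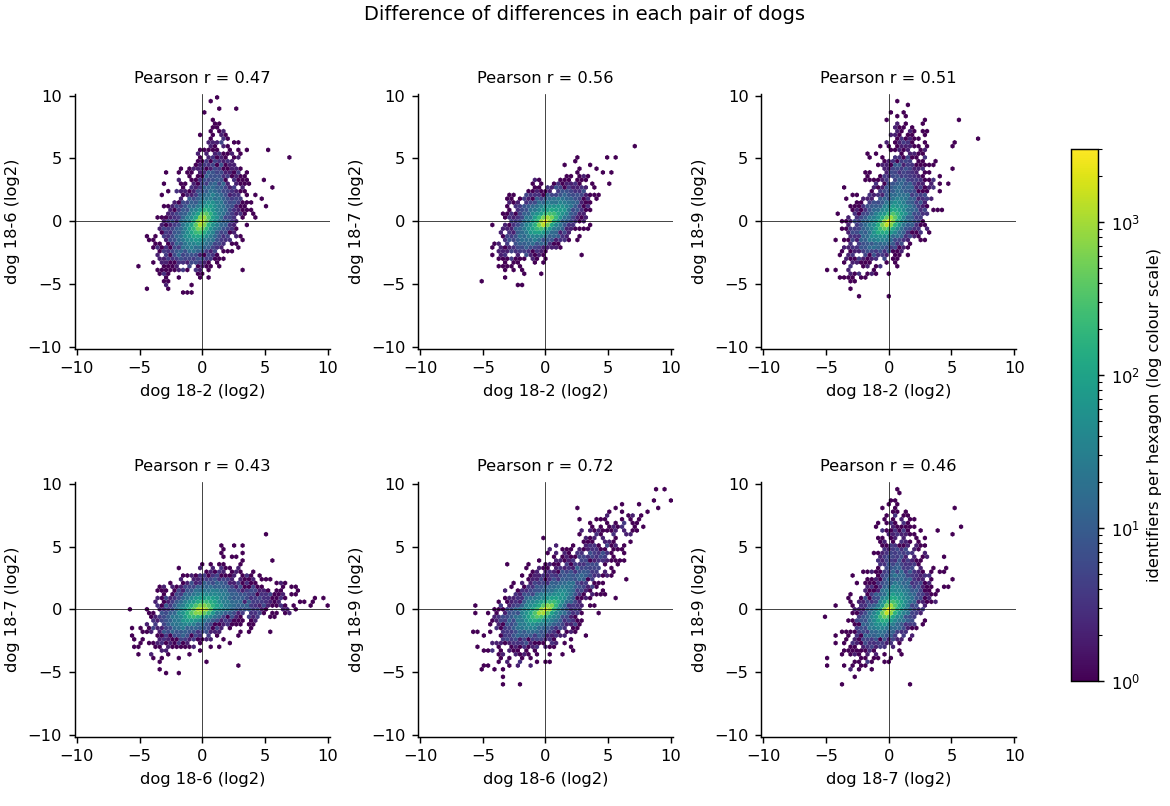
Difference of differences (log2) of 15577 identifiers in each pair of dogs, as hexagons coloured by the number of identifiers on a log scale. Dogs 18-6 and 18-9 share a tail of large positive values (r = 0.72) that is much smaller in dogs 18-2 and 18-7.

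The calls were set against the regional difference in each tissue. For 1735 of the 2049 (84.7%) the mean regional differences of the tissues had opposite signs, against 51% of all identifiers. A test for a difference between the tissues favours opposite signs, so this share is a description. The RPE/choroid difference was the larger one in 1344 calls (65.6%) and in 62.6% of all identifiers, so that its weight among the calls was near that of the background. Its median absolute size among the calls was 0.48 in RPE/choroid and 0.31 in retina on the log2 scale, and over all identifiers 0.21 and 0.13.

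A second description used the separate paired tests of each tissue, in which 18.9% of 14392 identifiers were called in retina and 13.4% of 14352 in RPE/choroid (edgeR). Toward retina, 427 of 1048 (40.7%) were called higher in the macula of the retina with no call in RPE/choroid, and 298 (28.4%) lower in the macula of RPE/choroid with no call in retina. Another 135 (12.9%) were called in both, in opposite directions, and 173 (16.5%) in neither. Toward RPE/choroid, 369 of 1001 (36.9%) were called higher in macular RPE/choroid only, and 278 (27.8%) lower in macular retina only. Opposite calls held for 97 (9.69%), and 217 (21.7%) were called in neither tissue. Calls in the same direction in both tissues, with a difference in size, numbered 13 toward retina and 39 toward RPE/choroid. A test for a difference between the tissues disfavours them and favours opposite calls, so these shares are a description. Identifiers too low for the test within a tissue counted as not called there. These separate counts also changed with single dogs left out. In RPE/choroid, 1930 calls became 74 without dog 18-2, 359 without dog 18-6 and 239 without dog 18-9, but 2683 without dog 18-7. In retina, 2719 became 1706 without dog 18-6, 1519 without dog 18-7 and 1721 without dog 18-9, but 3765 without dog 18-2.

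**Figure D4:**
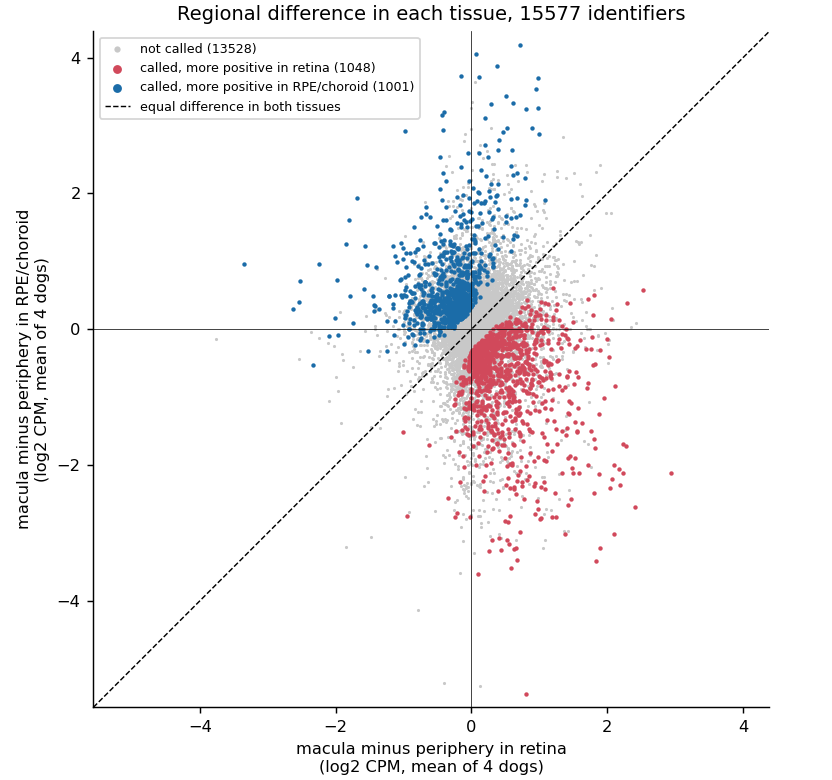
Mean difference between macula and periphery (log2 CPM, 4 dogs) in retina on the horizontal axis and in RPE/choroid on the vertical axis for 15577 identifiers; the dashed line marks equal differences. The 1048 identifiers called toward retina lie mostly in the lower right quadrant and the 1001 called toward RPE/choroid mostly in the upper left one.

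Identifiers were grouped by the tissue that expressed them, from the contrast of retina with RPE/choroid averaged over both regions, which is balanced with respect to the interaction and called 79.3% of identifiers. Of 1692 retina-preferential identifiers, at least 4-fold higher in retina, 126 (7.45%) were called toward retina and 94 (5.56%) toward RPE/choroid, near the shares over all identifiers. Their median interaction was 0.25, and the medians of the dogs were 0.061 in dog 18-2, 0.089 in dog 18-6, 0.44 in dog 18-7 and 0.26 in dog 18-9. Without dog 18-7 the fitted median was 0.034, and with any other dog left out it was 0.22 to 0.37. The fitted median thus depended most on dog 18-7, although the median of each dog was positive.

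Of 2035 RPE/choroid-preferential identifiers, 168 (8.26%) were called toward retina and 214 (10.5%) toward RPE/choroid. Their median interaction was -0.24, with -0.17, -0.38, -0.12 and -0.26 in dogs 18-2, 18-6, 18-7 and 18-9. All 4 dogs therefore had a negative median. The 285 identifiers restricted to RPE/choroid in the periphery had the median of 0.35 given above. Their choice by peripheral levels favours positive interaction values, so this median is not comparable with the -0.24. The median of the 2035 came from the RPE/choroid, where the macular excess had a median of 0.26, and little from the retina, with 0.032. With both dogs 18-6 and 18-9 left out it was -0.12. The 9448 shared identifiers, under 2-fold apart between tissues, had 504 (5.33%) and 487 (5.15%) calls and a median of -0.018.

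Identifiers restricted to retina in the periphery did not have an even summed level between the regions of the RPE/choroid. A group of 364 identifiers, at least 16-fold higher in peripheral retina than in peripheral RPE/choroid of every dog, summed in macular and peripheral RPE/choroid to 1060 and 487 CPM in dog 18-2, and to 887 and 566 CPM in dog 18-6. The sums were 744 and 787 CPM in dog 18-7, and 708 and 413 CPM in dog 18-9. In retina libraries the same group held 33300 to 37100 CPM. The level in RPE/choroid was thus higher in the macula in 3 of 4 dogs, and its part in the calls of retina-preferential identifiers was not tested. Of the 364, 5 were called toward retina (1.37%, against 6.73% of all identifiers) and 27 toward RPE/choroid (7.42%, near the 6.43% of all identifiers). Peripheral values chose this group too, which favours low peripheral RPE/choroid levels, so the higher macular sums are a description.

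Precision followed abundance. The standard error of the interaction had a median of 0.148 on the log2 scale, with 0.0823 and 0.684 at the 10th and 90th percentiles, and the smallest called value was 0.28. Identifiers were divided into 3 equal groups by mean level. In the lower group (0.637 to 23.9 CPM), 8.2% were called, with a median absolute value of 1.77 among the calls and a median standard error of 0.412. In the middle group 15.4% were called, with 0.83 and 0.129. In the upper group, from 71.5 to 906 CPM, 15.9% were called, with 0.59 and 0.095. Smaller differences were thus detectable only among the more abundant identifiers. Of 1715 identifiers under a mean of 1 CPM in either tissue, 59 (3.44%) were called, against 1990 of 13862 (14.4%) at or above it in both.

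The identifiers with the largest interaction values in each direction, among calls of the same sign in all 4 dogs and with a mean of at least 1 CPM in each tissue, show both kinds of pattern. ENSCAFG00000030721 was 1 of the mirrored identifiers. It had 86.8, 53.9, 85.3 and 46.8 CPM in peripheral RPE/choroid and 85.4, 2.63, 122 and 1.42 CPM in macular RPE/choroid of dogs 18-2, 18-6, 18-7 and 18-9. In retina it had no count in the periphery of dogs 18-2, 18-6 and 18-7 and 0.993 CPM in dog 18-9, and 0.442, 16.7, 0.304 and 21.9 CPM in the macula in the same order of dogs. The macular level thus departed from the periphery mainly in dogs 18-6 and 18-9, in opposite directions in the tissues, and macula and periphery overlapped in RPE/choroid. Only the macular retina of these dogs, with 81 and 136 counts, brought its retina mean past 1 CPM. Macular retina of dogs 18-2 and 18-7 held 3 and 2 counts, so the shared sign in all 4 dogs rested on few counts. Its interaction value was 9.95 ± 0.43 (SE, edgeR adjusted p = 0.00259). The 4 differences of differences were 1.19, 9.87, 0.39 and 8.79, with a mean of 5.06 ± 4.96 (SD, n = 4 dogs), and with equal weight for each dog the limma adjusted p was 0.168. Without dogs 18-6 and 18-9 the fitted value was 4.09 (edgeR adjusted p = 0.102).

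ENSCAFG00000012373 followed the same dogs. Its level in RPE/choroid was 177, 87.3, 182 and 108 CPM in the periphery and 89.9, 3.72, 150 and 0.994 CPM in the macula of dogs 18-2, 18-6, 18-7 and 18-9. In retina it was 0.892, 0, 0 and 1.99 CPM in the periphery and 0.589, 11.3, 0.152 and 20.4 CPM in the macula. Again the low macular RPE/choroid and the high macular retina values belonged to dogs 18-6 and 18-9. Only these high values brought its retina mean past 1 CPM. The interaction value was 8.94 ± 1.22 (SE, edgeR adjusted p = 0.0133), and the limma adjusted p was 0.172. The call was lost without dog 18-6 (8.47, edgeR adjusted p = 0.0522) and without dog 18-9 (7.05, edgeR adjusted p = 0.0987), and the value was 0.71 without both.

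ENSCAFG00000015475 led in the other direction together with ENSCAFG00000002586, and did so evenly in all dogs. In retina it had 46.2, 31.9, 20.7 and 18.4 CPM in the periphery and 2.36, 4.94, 1.06 and 2.25 CPM in the macula of dogs 18-2, 18-6, 18-7 and 18-9. In RPE/choroid it had 111, 175, 104 and 93.8 CPM in the periphery and 205, 341, 197 and 207 CPM in the macula. Macula and periphery did not overlap in either tissue, and the macula was the lower region in retina and the higher one in RPE/choroid. The fitted interaction was -4.45 ± 0.27 (SE, edgeR adjusted p = 0.00342), the differences of differences ran from -4.96 to -3.51, and the limma adjusted p was 0.0252. It was called in all 16 alternatives.

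ENSCAFG00000002586 was a low-count member. In peripheral RPE/choroid it had no count in 3 dogs and 2 counts, or 0.305 CPM, in dog 18-9, against 15.4, 25.2, 2.02 and 2.56 CPM in the macula of dogs 18-2, 18-6, 18-7 and 18-9. In retina it had 2.32, 3.43, 5.54 and 5.63 CPM in the periphery and 6.04, 6.18, 6.68 and 8.2 CPM in the macula, a difference that did not pass the threshold (edgeR adjusted p = 0.0568). RPE/choroid values of the regions did not overlap, and dogs 18-2 and 18-6 were the high ones in the macula. Only the macular libraries brought its RPE/choroid mean past 1 CPM. For the interaction the value was -5.08 ± 0.85 (SE, edgeR adjusted p = 0.0207), with a limma adjusted p of 0.0579. The call was lost without dog 18-2 (edgeR adjusted p = 0.0727), without dog 18-6 (0.0723) and without dog 18-9 (0.0604).

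**Figure D5:**
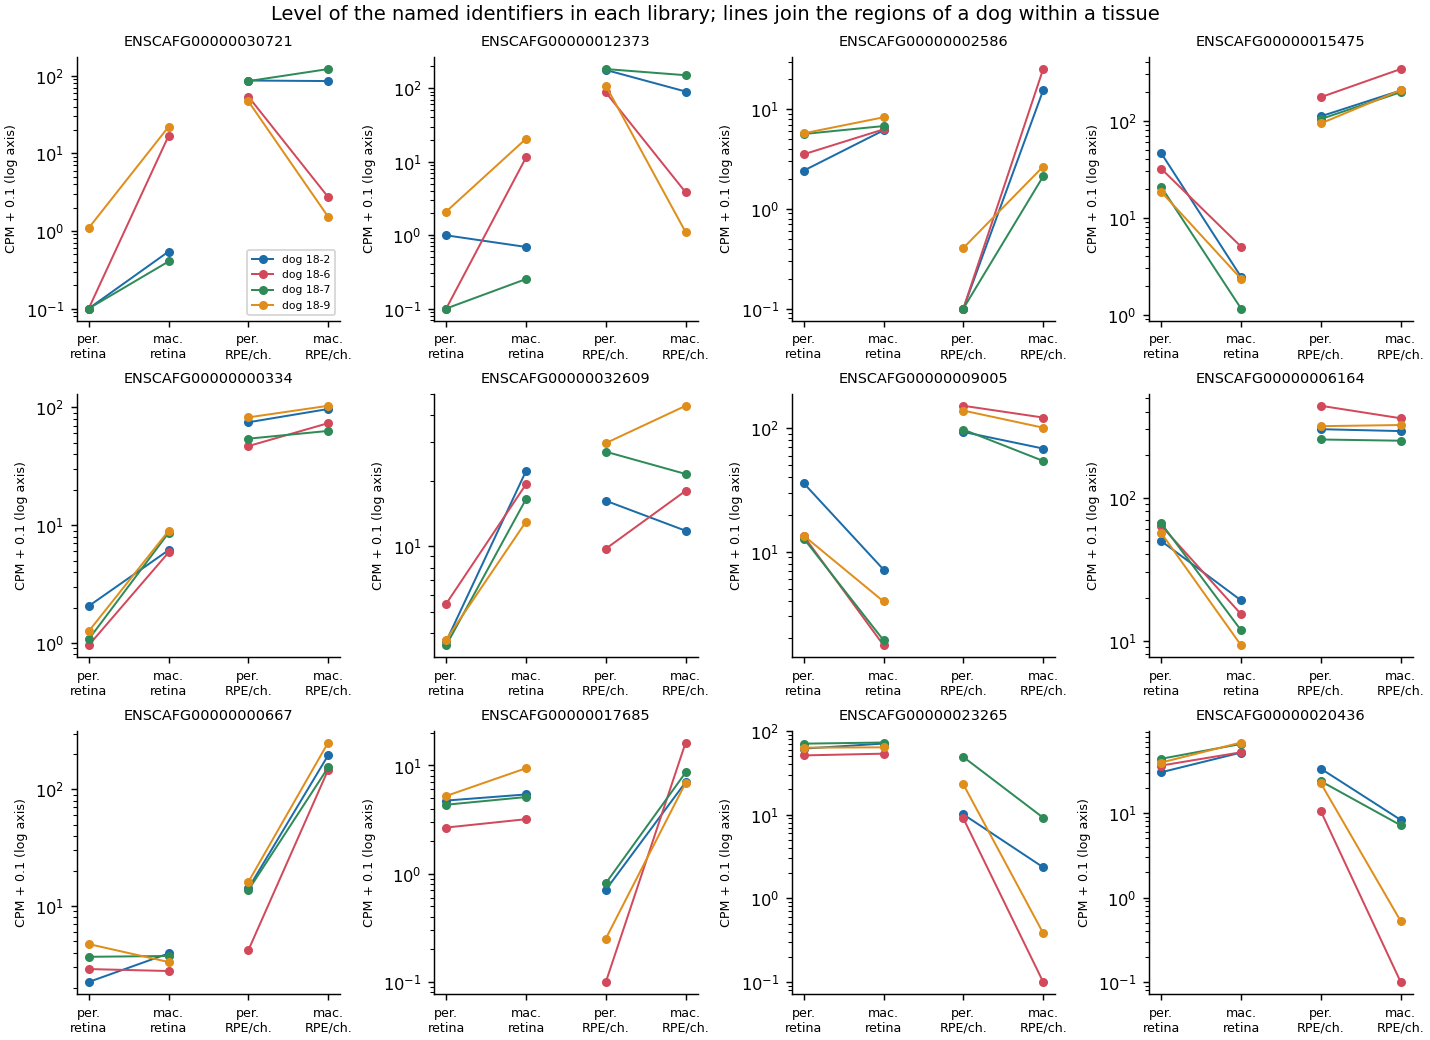
Level (CPM + 0.1, log axis) of the 12 named identifiers in peripheral and macular retina and in peripheral and macular RPE/choroid; points are libraries, coloured by dog, and lines join the regions of a dog within a tissue. ENSCAFG00000030721 and ENSCAFG00000012373 change in the macula of dogs 18-6 and 18-9, whereas ENSCAFG00000015475 and ENSCAFG00000000667 change alike in all 4 dogs.

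A narrower description took calls whose difference lay in 1 tissue. The conditions were a difference of at least 2-fold in every dog in that tissue with no overlap between the regions, under 2-fold in every dog in the other tissue, and a mean of at least 1 CPM in each. In RPE/choroid, 64 identifiers were higher and 15 lower in the macula by this rule, and in retina 21 were higher and 7 lower. These were small parts of the 2049 calls among 15577 identifiers. The conditions use the values themselves, so the counts are a description. Among all 15577 identifiers, 1692 were retina-preferential, 2035 RPE/choroid-preferential and 9448 shared. Of the 64, 23 were retina-preferential, 10 RPE/choroid-preferential and 18 shared. Of the 21 higher in macular retina, 10 were RPE/choroid-preferential and 2 retina-preferential. The 7 lower ones included 6 that were RPE/choroid-preferential.

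For differences lying in RPE/choroid, ENSCAFG00000000667 was the largest of those higher in the macula. It had 14.1, 4.09, 13.6 and 16 CPM in peripheral and 196, 147, 154 and 252 CPM in macular RPE/choroid of dogs 18-2, 18-6, 18-7 and 18-9. Retina values lay between 2.14 and 4.63 CPM in both regions. The macular RPE/choroid stood above the 12 other libraries in every dog. Its interaction value was -3.91 ± 0.36 (SE, edgeR adjusted p = 0.00671, limma adjusted p = 0.0268), and it was called in all 16 alternatives.

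ENSCAFG00000017685 had 0.611, 0, 0.718 and 0.152 CPM in peripheral and 6.92, 16.2, 8.52 and 6.81 CPM in macular RPE/choroid, in the same order of dogs. In retina it lay between 2.57 and 9.33 CPM. Peripheral RPE/choroid was thus the only group close to 0, and only the macular libraries brought the RPE/choroid mean past 1 CPM. The interaction value was -3.92 ± 0.55 (SE, edgeR adjusted p = 0.0139), and the call was lost without dog 18-2 (edgeR adjusted p = 0.0504) and without dog 18-9 (0.0552).

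Lower in macular RPE/choroid were 2 retina-preferential identifiers. ENSCAFG00000023265 had 9.98, 8.92, 48.8 and 22.9 CPM in peripheral and 2.25, 0, 9.1 and 0.284 CPM in macular RPE/choroid of dogs 18-2, 18-6, 18-7 and 18-9. In retina it had 51 to 72.8 CPM. The regions do not overlap on the TMM-scaled log2 values used by the rule, but the macular 9.1 CPM of dog 18-7 lay above the peripheral 8.92 CPM of dog 18-6. Its interaction value was 3.25 ± 0.56 (SE, edgeR adjusted p = 0.0215), with no call without dog 18-2 (edgeR adjusted p = 0.0641) or without dog 18-6 (0.0511).

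ENSCAFG00000020436 had 33.4, 10.4, 23.7 and 22.4 CPM in peripheral and 8.2, 0, 7.07 and 0.426 CPM in macular RPE/choroid. In retina it rose from 30.3 to 43.8 CPM in the periphery to 51.9 to 68.3 CPM in the macula (edgeR adjusted p = 0.000887). Here, too, dogs 18-6 and 18-9 had the lowest macular RPE/choroid values. The interaction had a value of 3.45 ± 0.60 (SE, edgeR adjusted p = 0.0229), and the call was lost without dog 18-2 (edgeR adjusted p = 0.0716), without dog 18-6 (0.0531) and without dog 18-9 (0.0525).

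For differences lying in the retina, ENSCAFG00000000334 had the largest of those higher in the macula. It rose in retina from 1.96, 0.858, 0.977 and 1.16 CPM in the periphery to 6.04, 5.77, 8.5 and 8.84 CPM in the macula of dogs 18-2, 18-6, 18-7 and 18-9. In RPE/choroid, where it was far more abundant, it had 46.8 to 82.1 CPM in the periphery and 63 to 103 CPM in the macula. The retina regions did not overlap and those of RPE/choroid did, although the smaller difference there was also called (edgeR adjusted p = 0.0351). For the interaction the fit gave 2.19 ± 0.28 (SE, edgeR adjusted p = 0.0115), and the call was lost without dog 18-9 (edgeR adjusted p = 0.0535).

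ENSCAFG00000032609 had 3.57, 5.36, 3.42 and 3.64 CPM in peripheral and 22.1, 19.2, 16.4 and 12.9 CPM in macular retina. In RPE/choroid it was lower in the macula in dogs 18-2 and 18-7 and higher in dogs 18-6 and 18-9, with 9.66 to 44.1 CPM in all. The fitted interaction was 2.02 ± 0.38 (SE, edgeR adjusted p = 0.0274), and the limma adjusted p was 0.0646. The call was lost without dog 18-2 (edgeR adjusted p = 0.0787), without dog 18-7 (0.0711) and without dog 18-9 (0.0599).

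Lower in macular retina were 2 RPE/choroid-preferential identifiers with a smaller regional difference in RPE/choroid. ENSCAFG00000006164 fell from 49.6, 63.5, 66 and 56.4 CPM in the periphery to 19, 15.2, 11.7 and 9.17 CPM in the macula of the retina. In RPE/choroid it had 255 to 439 CPM in the periphery and 250 to 359 CPM in the macula. The interaction value was -2.02 ± 0.23 (SE, edgeR adjusted p = 0.00952), and it was called in all 16 alternatives.

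ENSCAFG00000009005 fell in retina from 35.8, 13.3, 12.7 and 13.4 CPM to 7.07, 1.65, 1.82 and 3.86 CPM, with dog 18-2 the highest in both regions. In RPE/choroid it had 93.3 to 152 CPM in the periphery and 54.3 to 122 CPM in the macula, and was lower in the macula in every dog (edgeR adjusted p = 0.0186). Its interaction value was -1.86 ± 0.19 (SE, edgeR adjusted p = 0.00788). With the dog as an additive block only, the edgeR adjusted p was 0.0698, and with no block 0.0923.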

How the data were processed

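The deposited files hold raw counts per gene identifier, 1 library per file. The authors made these counts from directional libraries of total RNA, per the labels' protocols. The tools named, without roles, are HISAT2 2.1.0, featureCounts 2.0.0, Trimmomatic 0.39, SAMtools and FastQC 0.11.8, per the submitters' processing notes. Genome build, annotation, strand setting and any removal of duplicates were not given in the sources used here, so counts of overlapping and antisense genes, and levels and folds of the most abundant genes, are uncertain. Members and groups were chosen with earlier results of these data known.

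Identifiers were filtered with filterByExpr by group and scaled by TMM. The interaction was tested with edgeR 4.0.16 (glmQLFit, glmQLFTest, R 4.3.3) on 16 libraries. The terms were dog, tissue, region, dog by tissue, dog by region and the tested tissue by region term. This pairs the 4 libraries of a dog and leaves 3 residual degrees of freedom, plus 3.21 from the prior. The dog is the pairing unit because its 4 libraries come from 1 animal. Deviations from group means correlated at -0.09 to 0.56 within dogs, across identifiers. Benjamini-Hochberg adjusted p under 0.05 over all 15577 identifiers was the threshold. The separate tissue tests used the dog as a block. The edgeR p-values come from a count fit that does not weigh the dogs equally. A small p-value can therefore go with a wide spread among these 4 dogs. ENSCAFG00000030721 had a standard error of 0.43, while its 4 differences of differences had a standard deviation of 4.96. Standard errors were taken from the fold change and the F statistic. Differences per dog are on log2 CPM with a prior count of 2. CPM printed for single libraries is per total counts.

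Named identifiers were the 2 with the largest interaction in each direction, among calls with a mean of at least 2 CPM over 16 libraries and 1 CPM in each tissue and 1 sign in 4 dogs. The rule for the 8 others, the mirrored identifiers and the groups restricted in the periphery were set after values had been seen. Among the identifiers that passed the rule for a difference in 1 tissue, each of these 8 had the largest or second largest mean difference in its tissue and direction. The edgeR and limma interaction fits were tried on simulated counts in which dogs differed in tissue and region but not in the interaction. False calls where dogs differ in the interaction were therefore not tested. Alternatives used limma 3.58.1, DESeq2 1.42.0, other scalings, filters and blocks, and each dog left out.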

Additional observations from a re-analysis of the deposited data

Results flagged for a closer look

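The regional difference differed between retina and RPE/choroid, by the edgeR interaction test, for 2049 identifiers and for each of the 12 named ones. The interaction log2 values were 9.95 for ENSCAFG00000030721, 8.94 for ENSCAFG00000012373, -5.08 for ENSCAFG00000002586 and -4.45 for ENSCAFG00000015475. Differences lying in the retina had 2.19 for ENSCAFG00000000334, 2.02 for ENSCAFG00000032609, -1.86 for ENSCAFG00000009005 and -2.02 for ENSCAFG00000006164. Differences lying in RPE/choroid had -3.91 for ENSCAFG00000000667, -3.92 for ENSCAFG00000017685, 3.25 for ENSCAFG00000023265 and 3.45 for ENSCAFG00000020436. One dog stood far from the other three in ENSCAFG00000017685, namely dog 18-6 with a difference of differences of -5.37, against -3.06 to -2.72. Such a gap is met by chance in about 1 of 20 groups.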

How the results depend on the processing

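The 2049 interaction calls were 705 with no replicate block, 1181 with the dog as an additive block, and 980 and 394 with limma on the 4 differences of differences at prior counts of 2 and 0.5. They stayed within 1.5 times with each dog blocked in each tissue only (2993), DESeq2 (1622), RLE (2046), total counts (2046), TMM within each tissue (2017), no low-count filter (1643), and at least 1 CPM in each tissue (2103). The fit without dogs 18-6 and 18-9 called 1880, but on only 2 dogs this count does not show agreement among dogs. With 1 dog left out they ran from 341 to 1234. No call of the reported fit was called in the opposite direction in any of these fits, and none of the 12 named identifiers changed sign. With no replicate block, 5 of the 12 lost their call, namely ENSCAFG00000030721, ENSCAFG00000012373, ENSCAFG00000032609, ENSCAFG00000009005 and ENSCAFG00000023265. The separate retina calls (2719) were 1224 with no replicate block and 1519 to 3765 with a dog left out, and those of RPE/choroid (1930) were 349 and 74 to 2683. The median of retina-preferential identifiers was 0.034 to 0.37 with a dog left out. That of RPE/choroid-preferential ones was -0.35 to -0.16 with a dog left out and -0.12 without dogs 18-6 and 18-9. That of shared ones was -0.039 with total counts, 0.0048 with TMM within tissues, 0.0014 without a filter, 0.023 with 1 CPM in each tissue, -0.0046 without dogs 18-6 and 18-9, and -0.063 to 0.0061 with a dog left out. Mirrored identifiers at 2-fold numbered 57, 188, 32 and 188 in dogs 18-2, 18-6, 18-7 and 18-9, with 116 in both of dogs 18-6 and 18-9. At 8-fold they numbered 0, 14, 0 and 13, with 6 in both. With a prior count of 0.5 they numbered 5, 70, 3 and 83. These settings for mirrored identifiers and the fit without dogs 18-6 and 18-9 were chosen after seeing the data. The cause of these changes was not tested.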

Other observations

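The 6 macular RPE/choroid libraries of dogs 1, 2 and 3 give a further set of levels for the identifiers whose difference lay in RPE/choroid. They come from other dogs and have no periphery, so the values are set side by side without a test. ENSCAFG00000000667 had 82.7 to 240 CPM in these libraries, above all 4 peripheral RPE/choroid libraries of the first dogs (4.09 to 16 CPM). ENSCAFG00000017685 had 2.98 to 30 CPM, above the peripheral 0 to 0.718 CPM. ENSCAFG00000020436 had 1.4 to 6.68 CPM, below the peripheral 10.4 to 33.4 CPM. Values of ENSCAFG00000023265, at 0.242 to 21.7 CPM, overlapped the peripheral 8.92 to 48.8 CPM. ENSCAFG00000002586 had 0.255 to 8.25 CPM, with 1 library below the highest peripheral value of 0.305 CPM.

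The mirrored identifiers ENSCAFG00000030721 and ENSCAFG00000012373 split the 6 libraries in the way the group of 30 did. ENSCAFG00000030721 had 28.1 and 27.8 CPM with the retina on and off in dog 1, 2.17 and 88.3 CPM in dog 2, and 25.9 and 0.637 CPM in dog 3. ENSCAFG00000012373 had 95.4 and 93.3 CPM in dog 1, 13.3 and 71.8 CPM in dog 2, and 36.4 and 3.31 CPM in dog 3. The group restricted to retina in the periphery summed to 7100 CPM in the retina-on library of dog 1 and to 503 to 1820 CPM in the other 5. The low libraries of dogs 2 and 3 had 503 and 546 CPM. The part of retinal signal in the levels of the mirrored identifiers was not tested.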
